A study of Mus musculus with 6 samples.

Results

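Kruppel-like factors (KLFs) were followed in resting CD4 T cells of mouse spleen with and without vasoactive intestinal peptide (VIP). They were taken as the probes whose gene name in the array files is Klf2, Klf3, Klf4, Klf6, Klf7, Klf9, Klf10, Klf12, Klf13 or Klf16, leaving out control features. This gave 18 probes for 10 genes, out of 41174 probes for 28632 genes on the array. All 10 genes could be tested, through 15 of the 18 probes, and the other 3 probes, all for Klf12, were too dim.

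KLFs are transcription factors with a zinc-finger domain at the carboxyl end that binds GC-rich and CACCC sequences. Some members activate and others repress, depending on the partners they recruit. In T cells KLF2 is best known for keeping resting cells quiescent and for driving the receptors with which they leave and re-enter lymphoid tissue, and KLF4 for restraining proliferation. VIP is a neuropeptide whose receptors on lymphocytes raise cyclic AMP.

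Each of 6 2-colour arrays held RNA of VIP-treated and of untreated cells, labelled as biological replicates 1 to 6, so each treatment has 6 samples. The mice were C57BL/6J males and females of 6 to 32 weeks, with no genetic change named. A sample was a pool of spleens, from which beads against CD4 selected the cells. No dose or length of the VIP treatment is stated in the sources used here, so the comparison is of treated with untreated cells only. Replicates 1, 3 and 5 had the VIP-treated RNA in the Cy5 channel, replicates 2, 4 and 6 had it in Cy3, and each of the 3 slides held both orientations.

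Probe sequences are shown for the members whose deposited position or reading frame says most about what was measured. All are 60 bases long and are written in lower case in the sense of the transcript. Klf2 had a pair of probes whose starts lie 1376 bases apart, and the GC-rich upstream one (78.3% G and C) has no stop triplet in any of the 3 frames. The single Klf13 probe covers 46229 bases of the mm9 genome and the brighter Klf3 probe 581 bases, so both cross a splice junction. No exon annotation of mm9 was used here, so exon or UTR is not stated for the other probes.
Klf2 (chr8:74843761-74843820, mm9, + strand): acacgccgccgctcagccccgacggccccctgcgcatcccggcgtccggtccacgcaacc
Klf3 (chr5:65213568-65214148, mm9, + strand): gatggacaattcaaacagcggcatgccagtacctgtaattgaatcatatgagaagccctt
Klf13 (chr7:71036629-71082857, mm9, - strand): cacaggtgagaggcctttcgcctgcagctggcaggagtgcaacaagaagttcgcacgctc

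The upstream sequences are shown because VIP receptors signal through cyclic AMP, and because FOXO and MEF2 factors are known regulators of Klf2. They are the 250 bases before the RefSeq gene start (GRCm38.p6), and 8 of the 10 members had an entry. Capitals mark matches on either strand to TGACG (the core of a cyclic AMP response element), CACCC (bound by KLFs), CTA and TAG parted by any 4 bases (MEF2) and TGTTTAC (FOXO). No match overlapped another in the 8 windows.
Klf2 (chr8:72318812-72319061, + strand): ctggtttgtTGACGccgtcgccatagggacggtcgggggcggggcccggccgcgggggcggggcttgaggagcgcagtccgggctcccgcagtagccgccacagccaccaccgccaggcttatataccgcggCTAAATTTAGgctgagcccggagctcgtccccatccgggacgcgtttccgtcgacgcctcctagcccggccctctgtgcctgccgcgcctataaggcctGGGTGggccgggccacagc
Klf4 (chr4:55532476-55532725, - strand): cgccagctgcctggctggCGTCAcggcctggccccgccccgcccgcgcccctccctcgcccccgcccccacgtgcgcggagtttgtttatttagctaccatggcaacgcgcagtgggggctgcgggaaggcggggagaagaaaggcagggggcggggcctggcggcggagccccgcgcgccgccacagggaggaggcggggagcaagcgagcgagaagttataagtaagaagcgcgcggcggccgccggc
Klf13 (chr7:63938916-63939165, - strand): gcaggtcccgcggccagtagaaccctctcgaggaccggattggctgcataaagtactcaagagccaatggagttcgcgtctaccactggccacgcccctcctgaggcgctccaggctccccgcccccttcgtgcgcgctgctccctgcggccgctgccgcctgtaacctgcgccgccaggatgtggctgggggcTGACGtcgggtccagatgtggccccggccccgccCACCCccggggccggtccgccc
Klf9 (chr19:23140976-23141225, + strand): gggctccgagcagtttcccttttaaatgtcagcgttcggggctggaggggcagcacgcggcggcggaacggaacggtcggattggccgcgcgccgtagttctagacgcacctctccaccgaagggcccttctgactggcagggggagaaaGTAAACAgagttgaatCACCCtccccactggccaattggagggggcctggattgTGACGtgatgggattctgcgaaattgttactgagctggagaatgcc

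TGACG was found upstream of 5 of the 8 members (Klf2, Klf4, Klf9, Klf12 and Klf13), and in 17.8% of the 32851 windows of all genes. The match ended 237 bases before the start in Klf2, 228 in Klf4, 52 in Klf13 and 42 in Klf9. CACCC was found in 6 of 8 members and in 52% of all windows. The MEF2 letters were found only upstream of Klf2 among the 8, against 3.2% of all windows, and the FOXO letters only upstream of Klf9, against 3.17%. These are matches of letters, not sites shown to be bound.

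None of the 10 KLF genes changed with VIP at an adjusted p under 0.05 (limma, Benjamini-Hochberg over all 19225 genes tested). Over all genes, 593 changed (3.08%), 330 upward (1.72%) and 263 downward (1.37%). At an unadjusted p under 0.05 stood 4 members, Klf2, Klf3, Klf4 and Klf13, beside 3212 of all genes (16.7%). The fitted ratio, VIP-treated over untreated on the log2 scale, was negative for 8 and positive for Klf4 among the 9 members above background in both treatments, which leaves out Klf12. Of the 8, Klf6 turned to 0.0061 with the scanner software's own processed signals, and Klf10 lay so near 0 that it changed sign with single replicates left out. The median of these 9 was -0.06, in a range from -0.27 to 0.21, beside a median of -0.0047 over all genes, of which 52.9% were negative. For 6 of the 9 genes the 95% interval of the log2 ratio lay within 0.25 of 0 on either side, and Klf2, Klf3 and Klf4 were the exceptions. Normalized levels in VIP-treated and untreated samples overlapped for every one of the 18 probes. The share over all probes was not counted, so this overlap is not read as a trait of the KLF genes.

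**Figure D1:**
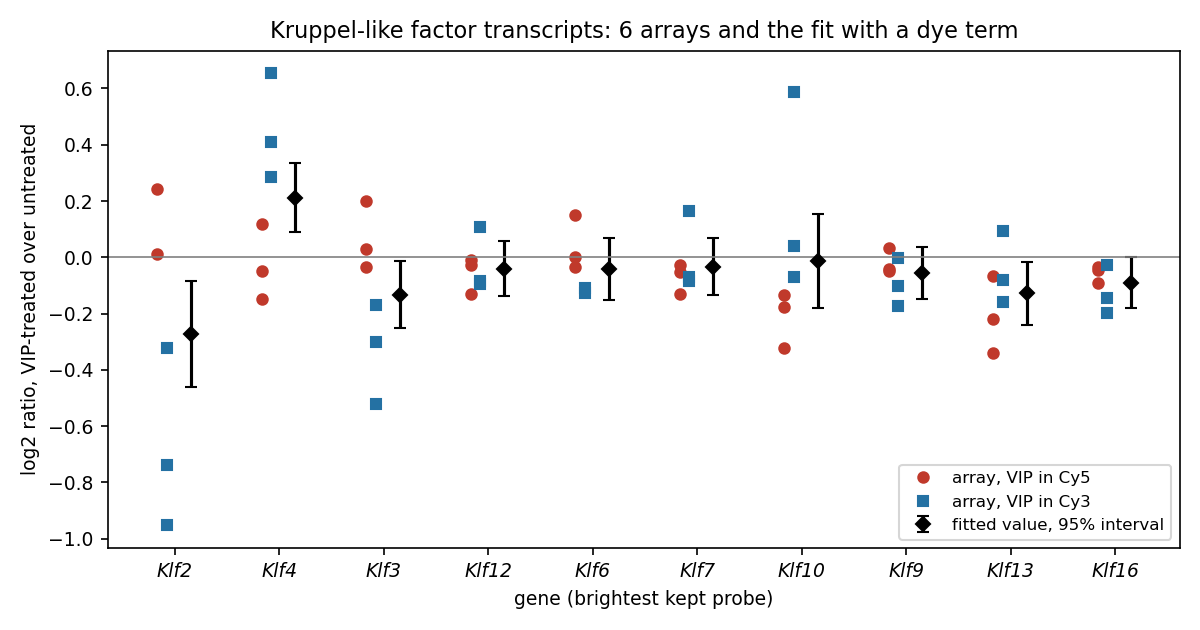
The VIP over untreated ratio (log2) is plotted for the brightest probe of each KLF gene, with red circles for arrays with VIP in Cy5, blue squares for VIP in Cy3, and black diamonds with bars for the fitted value and its 95% interval. Klf4 at 0.21 is the only fitted value above 0, and for 5 genes, Klf2, Klf3, Klf4, Klf6 and Klf10, the arrays separate fully by dye orientation. The share of all genes that separate so was not counted, so this is not read as a trait of the KLF genes.

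A 2-colour array reads each probe with a dye-dependent offset, which the model estimates for each probe as the Cy5 minus Cy3 term. Over all genes the size of this term had a median of 0.070 and a 90th percentile of 0.207 on the log2 scale. It adds to the ratio where VIP carried Cy5 and subtracts where VIP carried Cy3. Several KLF probes had large terms, so the ratios below are given with the dye orientation in view.

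Klf2 had the lowest ratio of the family. On its brighter probe (A_51_P144264, chr8:74845137-74845196 on mm9), the normalized log2 intensity ran from 16.4 to 17.7 with a median of 17.3 in VIP-treated samples. In untreated samples it ran from 17.4 to 18.0 with a median of 17.5, over the 5 arrays on which the spot was measured. The ranges overlap from 17.4 to 17.7, with untreated levels reaching higher and VIP-treated levels reaching lower. The log2 ratio was 0.013 and 0.24 on replicates 1 and 5, where VIP carried Cy5, and -0.74, -0.32 and -0.95 on replicates 2, 4 and 6, where it carried Cy3. The spot of replicate 3 was marked as an outlier by the scanner software and left out. Lower raw ratios thus came from 1 dye orientation only. With the dye term of 0.40 in the model, the fitted ratio was -0.27 (SE 0.084, 95% interval -0.46 to -0.08, n = 5 arrays), or a fold of 0.828. Its adjusted p was 0.130 by limma. After removal of the dye term, values were negative on 4 of 5 arrays, from -0.55 on replicate 6 to 0.076 on replicate 4. They share the fitted dye term, so they are not independent readings.

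Without replicate 4, Klf2 would be called lower, at -0.36 (limma adjusted p 0.0255). Leaving out any other replicate gave adjusted p values of 0.149 or more. The upstream Klf2 probe gave a similar fitted value of -0.21 (SE 0.081) on 4 arrays, with an adjusted p of 0.254 over all probes. Its dye term was 0.81, the largest of any member, with ratios of 0.42 and 0.78 where VIP carried Cy5 and of -0.82 and -1.20 where it carried Cy3. Within slides, where both orientations are averaged, the brighter probe stood at -0.36 on slide 1 and -0.35 on slide 3. Slide 2 had only 1 measured array. With the slide added to the model as a block, the fitted value was -0.18 (limma adjusted p 0.190), the smallest in size of all settings tried.

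Klf4 had the highest fitted value of the family. The log2 intensity of its only probe (A_51_P213544, chr4:55540833-55540892 on mm9, - strand) ran from 13.1 to 13.4 with a median of 13.2 in VIP-treated samples. In untreated samples it ran from 12.6 to 13.4 with a median of 13.1. The VIP-treated samples lie close together in the upper part of the untreated range (SD 0.104 against 0.289, n = 6 each). These levels keep the dye effect, and the untreated ones split by dye. They ran from 13.1 to 13.4 in Cy3 and from 12.6 to 13.0 in Cy5, so the wider untreated spread is not read as an effect of treatment. The ratio was -0.050, -0.15 and 0.12 on replicates 1, 3 and 5, with VIP in Cy5, and 0.41, 0.29 and 0.65 on replicates 2, 4 and 6, with VIP in Cy3. Higher raw values were thus seen on 4 of 6 arrays and on every array with VIP in Cy3.

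The Klf4 dye term was -0.24, and the fitted log2 ratio was 0.21 (SE 0.056, 95% interval 0.09 to 0.34, n = 6), a 1.16-fold difference. Its adjusted p of 0.0726 missed the threshold in the limma fit, with 843 of the 19225 genes at or below its unadjusted p. Values with the dye term removed were positive on 6 of 6 arrays, from 0.048 to 0.42. As for Klf2, these values share the fitted dye term and are not independent readings. The 3 slides gave 0.18, 0.069 and 0.39. Blocking on the slide left the size as it was, and Klf4 then passed, at an adjusted p of 0.0263 by limma. Leaving out single replicates gave values from 0.16, without replicate 6, to 0.25, without replicate 4, and none of these passed.

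Klf4 is also known in monocytes and macrophages, which beads may retain from spleen. None of 6 markers of those cells was called, and their summed level, over the 4 measured on all arrays, differed by -0.31 to 0.19 (log2) between the samples of an array. This sum was higher with VIP on replicates 2, 4, 5 and 6 and lower on replicates 1 and 3, the same signs as the Klf4 ratio on each array. Neither this sum nor that ratio had a dye term removed, and replicates 2, 4 and 6 are those with VIP in Cy3. The CD8 T marker sum, over 1 gene, was also split by orientation. It differed by 0.38 to 0.45 on replicates 2, 4 and 6 and by -0.33 to -0.024 on replicates 1, 3 and 5. Cd14 stood at 0.18 (limma adjusted p 0.0923). The monocyte and macrophage sum ran from 651 to 1210 with VIP and from 569 to 1127 without. The defining markers Csf1r and Adgre1 were well above background on 6 of 6 arrays in both groups. Of 5 neutrophil markers, 2 were well above background on all arrays of both groups, and none of the 3 tested was called. Their sum ran from 757 to 1998 with VIP and from 727 to 2306 without. It too had the sign of the Klf4 ratio on each array, again with no dye term removed. It was higher with VIP by 1.15 (log2) on replicate 6, while it differed by -0.47 to 0.068 on the others. For 8 of the 10 members replicate 6 held an extreme ratio, the highest for Klf4, Klf7, Klf10 and Klf12 and the lowest for Klf2, Klf3, Klf6 and Klf16. These are ratios with the dye effect left in, and Klf12 lay near background. How often replicate 6 was extreme over all genes was not counted, so this is not read as a trait of the KLF genes. Without replicate 6, Klf4 was at 0.16, Klf7 at -0.07, Klf10 at -0.11, Klf2 at -0.20, Klf3 at -0.09 and Klf16 at -0.07. The part of these cells in the results was not tested, and in bulk RNA fewer cells of a type and less RNA per cell cannot be told apart.

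**Figure D2:**
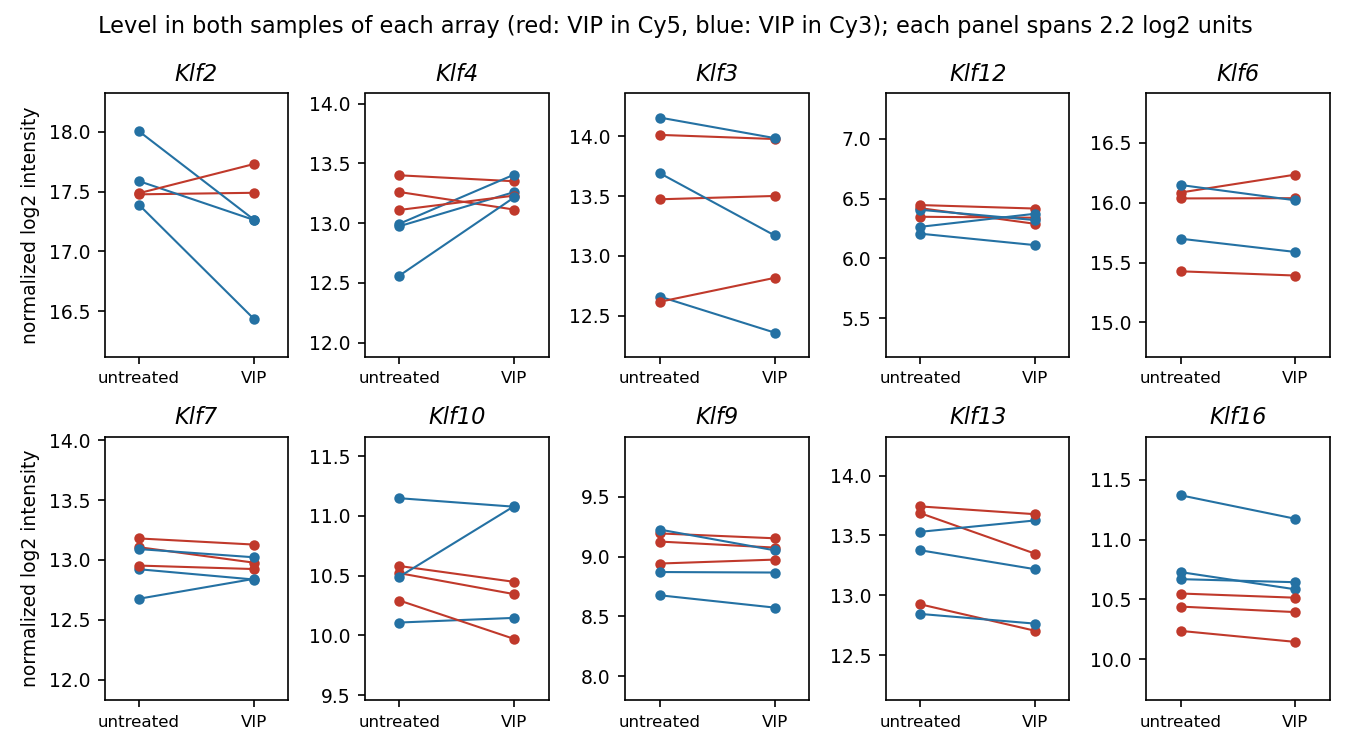
Normalized log2 intensity of each KLF gene's brightest probe in the untreated and the VIP-treated sample of each array, joined by a line (red, VIP in Cy5; blue, VIP in Cy3), with every panel spanning the same height. In both treatments the range of levels across arrays exceeds the largest difference between joined samples for every gene but Klf2 and Klf4.

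Klf3 and Klf12 encode repressors that act through the corepressor CtBP. The brighter Klf3 probe, which crosses a splice junction, ran from 12.4 to 14.0 with VIP and from 12.6 to 14.2 without. Its ratios were -0.035, 0.028 and 0.20 with VIP in Cy5 and -0.17, -0.30 and -0.52 with VIP in Cy3, again split by orientation. The fitted value was -0.13 (SE 0.054, 95% interval -0.25 to -0.014, n = 6), with an adjusted p of 0.239 by limma. The 3 slides agreed in sign, at -0.10, -0.14 and -0.16. The other Klf3 probe gave -0.07 (SE 0.045) with nearly the same dye term, 0.187 against 0.198.

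Klf12 was near background. Its kept probe (A_52_P617636, chr14:100270699-100270758 on mm9, - strand) was well above background on 3 VIP-treated arrays and on no untreated one, so the untreated level is only a bound and no fold is given. Its measured ratios ran from -0.13 to 0.11, and mean log2 intensity was 6.31 with VIP and 6.35 without. The fitted value of -0.04 (SE 0.045) therefore describes signal near the background. Another 3 Klf12 probes reached that mark on at most 1 array in either treatment.

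Klf6 and Klf7 encode activators, KLF6 being widely expressed and induced early by many stimuli. Both genes had 2 probes, and the 4 fitted values lay close to 0. For Klf6 they were -0.04 (SE 0.049, n = 5, limma adjusted p 0.757) on the brighter probe and -0.017 (SE 0.046, n = 6) on the other. The brighter probe ran from 15.4 to 16.2 with VIP and from 15.4 to 16.1 without, and its ratios from -0.13 to 0.15. For Klf7 the fitted values were -0.03 (SE 0.046, limma adjusted p 0.794) and -0.012 (SE 0.042), with n = 6.

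The Klf7 probes differed in their dye response, not in their fitted ratio. On the dimmer probe (A_52_P239424, designed from the cDNA clone AK043773), ratios were -0.33, -0.44 and -0.41 with VIP in Cy5 and 0.45, 0.35 and 0.30 with VIP in Cy3. That is a dye term of -0.38 around a mean near 0. On the brighter probe the dye term was -0.04, and 5 ratios lay between -0.13 and -0.029 while replicate 6 stood at 0.17. On the dimmer probe all 3 arrays of the Cy5 orientation were thus below 0 and all 3 of the Cy3 orientation above it.

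**Figure D3:**
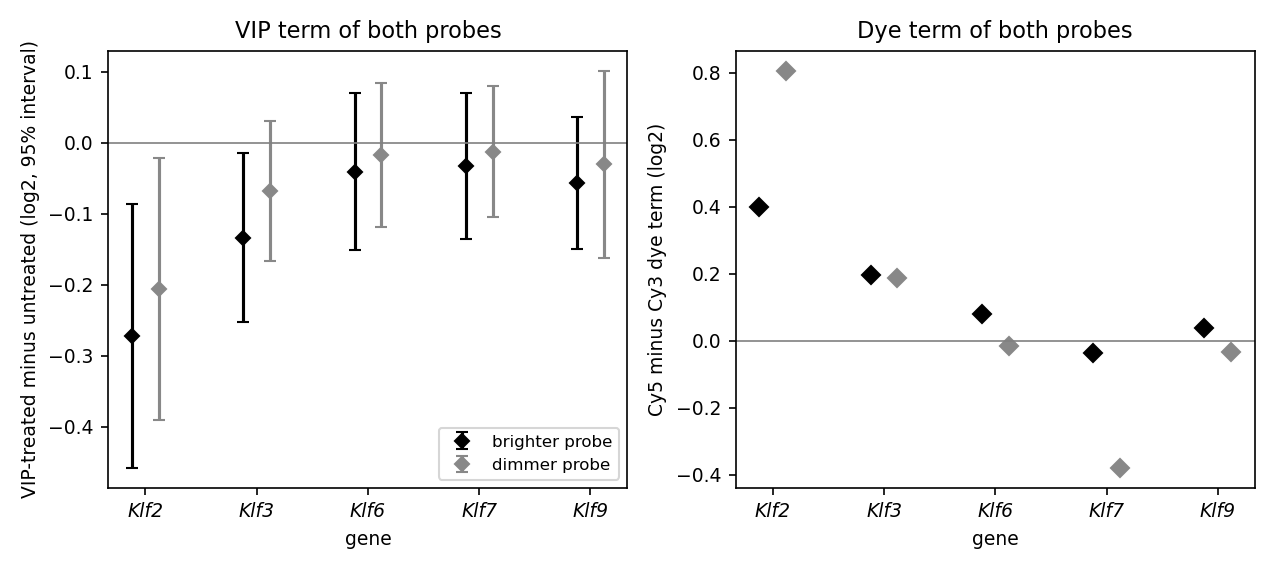
Fitted log2 difference between VIP-treated and untreated cells with its 95% interval (left) and Cy5 minus Cy3 dye term (right) for both probes of the 5 KLF genes that had a pair, black for the brighter probe and grey for the dimmer. The 2 probes of each gene have overlapping intervals on the left, while the dye terms of Klf2 (0.40 and 0.81) and Klf7 (-0.04 and -0.38) lie apart.

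Klf9, Klf10, Klf13 and Klf16 belong to the branch of the family whose proteins recruit the SIN3 corepressor. Klf13, whose product is known in T cells as an activator of the chemokine gene Ccl5 late after stimulation, had the lowest fitted value of the 4. Its probe ran from 12.7 to 13.7 with VIP and from 12.8 to 13.7 without. Ratios were -0.34, -0.065 and -0.22 with VIP in Cy5 and 0.095, -0.16 and -0.081 with VIP in Cy3. Thus 5 of 6 arrays were lower with VIP, but the mean was -0.21 with VIP in Cy5 and only -0.048 with VIP in Cy3. The fitted value was -0.13 (SE 0.051, 95% interval -0.24 to -0.016, n = 6, limma adjusted p 0.231). Slides gave -0.12, -0.11 and -0.15.

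Klf16 was the only member whose ratio had the same sign on all 6 arrays. Its ratios were -0.092, -0.14, -0.046, -0.026, -0.035 and -0.20 on replicates 1 to 6, and its dye term was small, 0.032. The size was small as well, at -0.09 (SE 0.041, 95% interval -0.18 to 0.0015), and the adjusted p was 0.309 by limma. Levels ran from 10.1 to 11.2 with VIP and from 10.2 to 11.4 without, so that arrays differed from each other far more than the paired samples did.

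Klf9, a gene induced by glucocorticoid and thyroid hormone, was lower on 5 of 6 arrays, in a range from -0.17 to 0.033, with a fitted value of -0.06 (SE 0.042, limma adjusted p 0.555). Its other probe gave -0.03 (SE 0.060), with ratios from -0.24 to 0.14. Klf10, a gene induced by transforming growth factor beta, had the widest spread among the members near 0. Its ratios were -0.18, -0.32 and -0.13 with VIP in Cy5 and 0.039, -0.071 and 0.59 with VIP in Cy3. The fitted value was -0.01 (SE 0.075, limma adjusted p 0.963). It turned positive when replicate 2, 3 or 4 was left out, at 0.025, 0.016 and 0.052, and no direction can be given for Klf10.

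**Figure D4:**
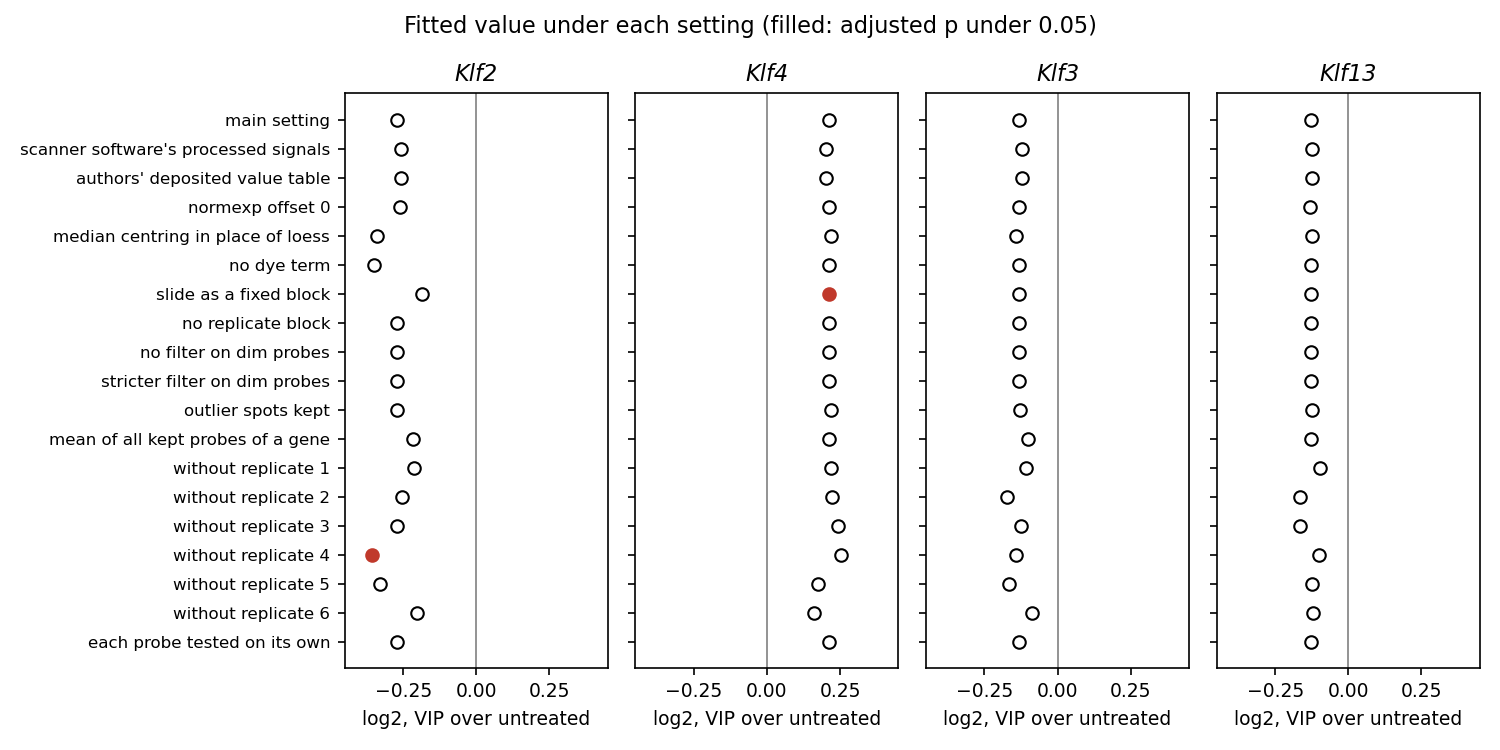
Fitted log2 ratio of VIP-treated over untreated for Klf2, Klf4, Klf3 and Klf13 under each processing setting and with each replicate left out; filled red points have an adjusted p under 0.05. The sign holds in every row, and only Klf2 without replicate 4 and Klf4 blocked on the slide are filled. Not every row could change the sign. For Klf3, Klf4 and Klf13 the main value recurs with no dye term, slide block, no replicate block, changed filters and probes tested alone. The processed signals and the deposited table give nearly identical values.

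Among 7 other KLF genes, 5 could be tested and none was called, with a median of 0.059. The lowest p was that of Klf11, a close relative of Klf10. Its ratio was lower on 6 of 6 arrays, from -0.26 to -0.034, with a fitted value of -0.15 (SE 0.044) and an adjusted p of 0.118 by limma. A second Klf11 probe gave -0.09. Klf5 stood at 0.11 (limma adjusted p 0.278), and its second probe at -0.04, of the opposite sign. Klf14 and Klf17 were not tested.

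SP factors share the KLF zinc fingers and bind overlapping GC-rich sites. Of 9 listed, 7 were tested and none was called through its brightest probe. Sp4 was at -0.10 on that probe (limma adjusted p 0.755), while its second probe was at 0.23 (SE 0.046) and passed when each probe was tested on its own (limma adjusted p 0.0265). Sp1 was at -0.19 (SE 0.057, limma adjusted p 0.106), and it would be called without replicate 2, the only array on which it was higher (-0.26, adjusted p 0.0272). Sp6 was at 0.13 (limma adjusted p 0.331). The list's median was -0.04.

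Among 16 genes that act upstream of Klf2 or Klf4, which include FOXO and MEF2 factors, the ERK5 kinase cascade and ubiquitin ligases, none was called. Of these, 11 were negative and 5 positive, in a range from -0.10 to 0.11. The lowest p values were those of Smurf1, a ubiquitin ligase known to target KLF2 protein, and Foxo3. Smurf1 was lower on 6 of 6 arrays, at -0.10 (SE 0.041, limma adjusted p 0.239), and its second probe was at 0.036, of the opposite sign. Foxo3 was higher on 5 of 6, at 0.11 (SE 0.047, limma adjusted p 0.273).

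Of 12 corepressors and cofactors that KLF proteins bind, 1 fell, beside 1.37% of all genes, and the list's median was -0.05. Sin3b, a scaffold of the SIN3 histone deacetylase complex, was at -0.25 (SE 0.049, limma adjusted p 0.0202). Its raw ratios were -0.68, -0.59 and -0.55 with VIP in Cy5 and 0.20, -0.077 and 0.19 with VIP in Cy3, a dye term of -0.36. A second Sin3b probe stood at 0.036. The value dropped to -0.0097 with outlier spots kept, and the call was lost without replicate 1 (adjusted p 0.0879) or replicate 5 (0.0652).

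Of the 22 genes reported here that are known to be controlled by KLF2, KLF4, KLF10 or KLF13, 21 were tested. Among these, 1 rose and none fell, beside 1.72% higher and 1.37% lower over all genes. Their median was 0.010, with 14 positive values. Tgfbr2 was at 0.083 on its brightest probe (limma adjusted p 0.659), while of its other 2 probes 1 passed on its own, at 0.21 (SE 0.039, limma adjusted p 0.0179), and the other stood at 0.011. Tgfbr2 and Sp4 are named after their values were seen. Ccr7, the receptor for the chemokines CCL19 and CCL21 with which naive T cells enter lymph nodes, rose by 0.29 (SE 0.061, n = 6, limma adjusted p 0.0322). It was higher on 5 of 6 arrays, from 0.15 to 0.51, and at -0.021 on replicate 2.

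The call is near the threshold. Of 17 alternatives to the processing and the replicates, Ccr7 and Sin3b were each called in 7. That of Ccr7 was lost without replicate 1, 3, 5 or 6 (limma adjusted p 0.102, 0.0696, 0.0940 and 0.0696). S1pr1, the lymphoid egress receptor and the best known KLF2 target, was well above background on all arrays of both groups but was measured on 4 arrays only, 3 of them with VIP in Cy5, so it was not tested. Its ratios, with the dye effect left in, were 0.31, 0.39 and 0.31 on replicates 1, 3 and 5, with VIP in Cy5. On replicate 4, the only measured array with VIP in Cy3, the ratio was 0.038, so no direction is given for S1pr1. Cdkn1a, which encodes the cell-cycle inhibitor p21 and is named here after its values were seen, was at 0.25 (limma adjusted p 0.0821), and would be called without replicate 2 (0.31, adjusted p 0.0407).

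**Figure D5:**
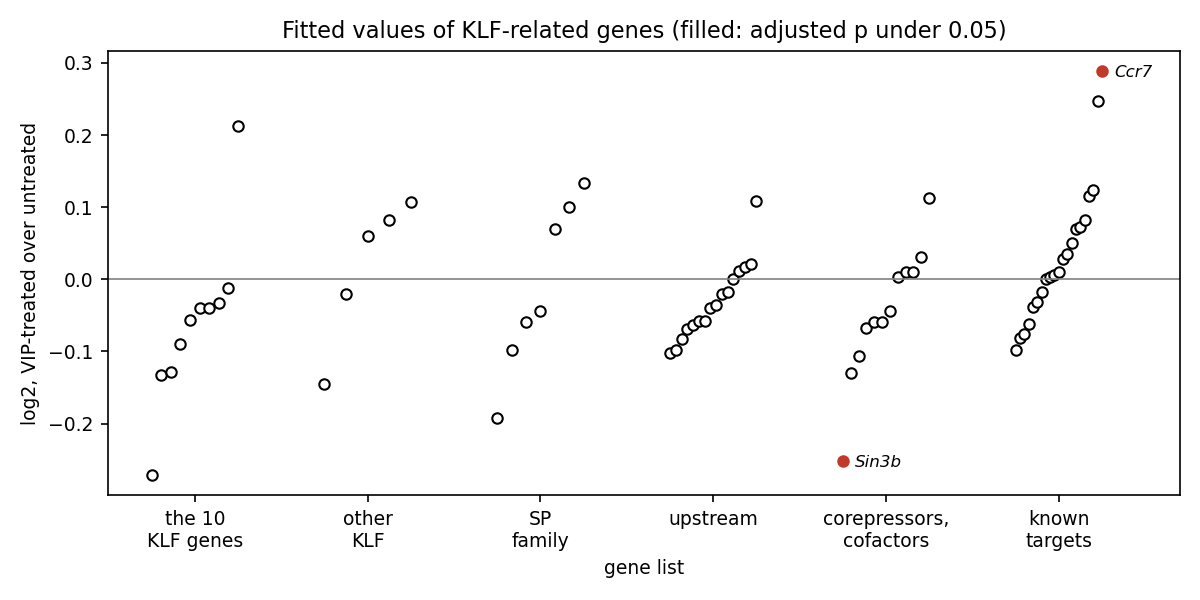
Fitted log2 ratios of VIP-treated over untreated for the 10 KLF genes and for the tested genes of 5 related lists, each point a gene by its brightest probe; filled red points have an adjusted p under 0.05. No KLF or SP gene is filled, and the filled genes are Sin3b at -0.25 and Ccr7 at 0.29.

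The T cell markers were well above background on 6 of 6 arrays in both groups for 7 of 7 genes, Cd4 and Cd3e among them. Their summed level, over the 6 measured on all arrays, ran from 130224 to 167930 with VIP and from 140706 to 194591 without, and was lower with VIP on all 6 arrays, by -0.27 to -0.07 (log2). Of the 7, only Thy1 was called (-0.29, limma adjusted p 0.0149), while Cd3g stood at -0.15, Cd3d at -0.13, Lck at -0.07, Cd28 at 0.0042, Cd4 at 0.012 and Cd3e at 0.025. The part of T cell content in the KLF values was not tested. B cell, natural killer, dendritic, CD8 T, erythroid, platelet and stromal marker lists held no called gene.

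As a description of likeness, the 6 raw array ratios of Klf4 were set against those of the other genes measured on all arrays (17201 compared). The closest were BC004066 (Pearson r = 0.999), Pla2g7 (0.999) and Vmn1r214 (0.997). All 3 follow the same alternation between dye orientations as Klf4, which is part of the ratios compared, and none of them was called, with fitted values of -0.14, -0.10 and -0.0088.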

How the data were processed

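Total RNA of VIP-treated and untreated cells was hybridised in pairs to 6 2-colour arrays. What the authors deposited for each array is a table of spot intensity from Agilent Feature Extraction (version 9.5.1.1), with probe positions on mm9, per the file headers. The authors also deposited a table that equals the scanner's log10 ratio turned to VIP over untreated (largest difference 4.768e-06), used only as an alternative. The mean signal and median background were corrected with normexp (offset 50) and normalized by loess within arrays, with control and outlier spots (1.93% to 8.96% per array) left out, in limma 3.58.1 and R 4.3.3. Between 59.1% and 79.0% of spots were well above background in a channel, and the number of arrays limits the precision.

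A probe was kept if well above background on at least 3 arrays in either treatment and measured on at least 2 arrays per dye orientation, the last rule being added with the data seen. Gene names were updated through RefSeq accessions for 24844 of 41174 probes. Each gene was represented by its brightest kept probe. The 2-sided limma model held a VIP term and a dye term over 6 arrays, so that both samples of an array are paired by design, with 4 residual degrees of freedom plus 6.54 prior ones, and Benjamini-Hochberg adjustment over 19225 genes. The fit was tested on simulated data. Alternatives changed the background correction, offset, normalization, dye term, slide and array blocks, filters, probe choice and replicates. P-values measure the spread between the labelled biological replicates.

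All 10 members are named. Each related list names its called genes, or the 2 of lowest p. Likeness is given for the member of lowest p. The members and lists were chosen with earlier results of these data known. The result of 1 listed gene is not reported here.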

Additional observations from a re-analysis of the deposited data

Results flagged for a closer look

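Of 23 sets of array ratios checked for a sample far from the others, 1 held such a sample. The brighter Klf7 probe stood at 0.166 on replicate 6, while the other 5 arrays lay between -0.129 and -0.029. The gap was 66.1% of the whole range. Chance alone marks about 5% of sets whose values come from a single distribution. The ratios checked here keep the dye effect, so the rate for these sets is not known. The dimmer Klf7 probe showed no such gap, at 0.30 on that array, beside 0.45 and 0.35 on the others with VIP in Cy3.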

How the results depend on the processing

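The direction of Klf2, Klf3, Klf4, Klf7, Klf9, Klf13 and Klf16 was the same under all processing alternatives and with any replicate left out. For all of these but Klf2, no dye term, slide block, no replicate block, changed filters and probes tested alone left the fitted value unchanged. The processed signals and the deposited table gave nearly identical values, so they are not separate checks. Klf6 turned to 0.0061 and Klf12 to 0.074 with the scanner's processed signals and with the deposited table. Klf10 ran from -0.11 to 0.052 with a replicate left out, positive at 0.025, 0.016 and 0.052 without replicates 2, 3 and 4. Klf2 ran from -0.36 (called) to -0.20 with a replicate left out, and stood at -0.18 with the slide as a block. Klf4 passed with the slide as a block (0.21). Within slide 3 alone Klf4 was at 0.39, Klf7 at 0.068, Klf9 at 0.014 and Klf10 at 0.23.

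The count of genes changed, higher and lower moved from 593, 330 and 263 to 38, 29 and 9 with processed signals, 41, 31 and 10 with the deposited table, and 133, 88 and 45 with an offset of 0. It was 308, 210 and 98 with median centring and 124, 87 and 37 with no dye term. With no replicate block, the 12 channels taken as unpaired, it was 4, 3 and 1. Outlier spots kept left 148 lower. Leaving out a replicate gave 254 to 498 changed, 151 to 279 higher and 103 to 219 lower.

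Members called numbered 0 in each direction, but 1 higher with the slide block and 0 to 1 lower with a replicate left out. The counts of 1 called corepressor and 1 called target fell to 0 with processed signals, the deposited table, offset 0, median centring, no dye term and no replicate block. The corepressor count was also 0 with outlier spots kept and with probes averaged. Without a replicate, counts ran from 0 to 1 for corepressors, from 0 to 2 for targets higher and from 0 to 1 for SP genes lower. Among the members, signal near background limits Klf12.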
